A study of Homo sapiens with 16 samples.

Results

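The nuclear genes for the structural subunits of the mitochondrial respiratory chain and ATP synthase were examined as one group of 88 genes among the 33937 genes of the count table. They were taken by symbol, from protein-coding nuclear genes named NDUFA, NDUFB, NDUFC, NDUFS, NDUFV, UQCR, ATP5F, ATP5M, ATP5P or COX4 to COX8, together with CYC1 and the SDH genes, leaving out the NDUFAF assembly factors. By complex, 37 belonged to complex I, 4 to complex II, 10 to complex III, 18 to complex IV and 19 to complex V, with NDUFA4 and NDUFA4L2 placed in complex IV. A further 77 genes met the symbol rule but were not protein-coding nuclear genes and were left out. COX7B2, a testis isoform on the list of restricted isoforms, was not among the genes analysed here. The cells came from HCT116, a human cell line established from a colorectal carcinoma, and stably carried either a scrambled control hairpin (SCR) or a short hairpin RNA against the histone N-terminal acetyltransferase NAA40 (NAA40-KD), each under doxycycline (dox) control. RNA-seq libraries were made from 4 groups of 4 RNA samples. They were labelled SCR (-dox) and SCR (+dox) for the control line and NAA40-KD (-dox) and NAA40-KD (+dox) for the other line. By the labels and methods, (+dox) cells had 1 μg/ml dox for 96 h and (-dox) cells had none. Each construct was represented by a single engineered line, so the hairpin and other differences between the lines cannot be told apart.

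Oxidative phosphorylation passes electrons from NADH through complex I, or from succinate through complex II, to coenzyme Q, then through complex III and cytochrome c to complex IV, which reduces oxygen. Complexes I, III and IV pump protons across the inner mitochondrial membrane, and complex V, the ATP synthase, uses the resulting gradient to make ATP. Most subunits are encoded in the nucleus and imported, while a small set is encoded by the mitochondrial genome, so each complex except complex II is built from the products of both genomes. Colorectal epithelium and its tumours rely on both glycolysis and respiration.

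Levels are given as CPM, the counts scaled to the size of the library, after TMM scaling, a library scaling that sets most genes level between libraries. The targeted gene came first as a check of the labels. NAA40 was measured at 34.5, 25.9, 29.1 and 28.2 CPM in SCR (-dox), 26.1, 28.4, 26.2 and 28.8 CPM in SCR (+dox), 12.6, 11.6, 9.27 and 13.8 CPM in NAA40-KD (-dox) and 31.4, 29.3, 28.6 and 31.9 CPM in NAA40-KD (+dox). Its level thus went against the labels, since the 4 NAA40-KD (-dox) libraries lay below all others (log2 fold change -1.31 with an SE of 0.18 (adjusted p = 0.00521) against SCR (-dox) in edgeR) and the NAA40-KD (+dox) libraries did not (log2 fold change 0.15 with an SE of 0.10 (adjusted p = 0.281) against SCR (+dox)). Groups are therefore named by label only, and no direction below is read as an effect of NAA40 loss. Below, with dox and without dox refer to the labels. Total counts ran from 11065606 to 13855486 per library, and the 88 subunit genes took 0.63 to 0.92% of them. Of the epithelial markers EPCAM, KRT8, KRT18, KRT19, CDH1 and VIL1, 5 of 6 were above 1 CPM in every library, against 1 of 9 markers of fibroblasts, leukocytes and endothelium. Summed epithelial marker level ran from 3795 to 4850 CPM in SCR (-dox) and 4312 to 5489 CPM in SCR (+dox), and from 5119 to 11060 CPM in NAA40-KD (-dox) and 4052 to 4391 CPM in NAA40-KD (+dox). The marker sum of other cells ran from 57.3 to 92.6, 70.0 to 94.6, 68.1 to 196 and 67.8 to 77.4 CPM in the same order. No marker was at 0 in all 16 libraries.

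One library stood apart over all genes. Replicate 4 of NAA40-KD (-dox) had a median rank correlation of 0.916 with its own group, against 0.987 to 0.996 for the other 15, and its deviations from the gene means correlated with GC content across genes (Spearman rho 0.855). A second library, replicate 3 of SCR (+dox), stood high in the subunits themselves, with a median subunit deviation of 0.433 on the log2 scale where the median over all genes was 0.017. Its deviations across all genes were negatively related to exon length (rho -0.355), and over the 80 subunits tested its rho with transcript length was -0.305. The subunit counts in the comparisons that these libraries enter most directly are given with and without them. Their part in these results beyond that was not tested.

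Compared per length of transcript, the highest levels were found in the ATP synthase, complex IV and complex III. ATP5F1B, the catalytic beta subunit of the F1 head, was highest with 572 CPM per kb of its median protein-coding transcript, averaged over the 16 libraries, followed by COX4I1 with 367, ATP5F1A with 294, UQCRB with 287 and UQCRH with 248 CPM per kb. The highest in complex I, NDUFB9, reached 177 CPM per kb, and the highest in complex II was SDHC with 225 CPM per kb. Complex I spread widely, down to NDUFA9 with 2.02 and NDUFA7 with 1.29 CPM per kb. NDUFA7, NDUFV2, NDUFA11, NDUFB8 and ATP5ME share exon positions with other genes, as do 48 of the 88 members, and because no source used here says whether reads were counted by strand, their values are uncertain. Since every transcript of a gene adds to its count, the order within a complex also depends on the transcript length assumed.

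**Figure D1:**
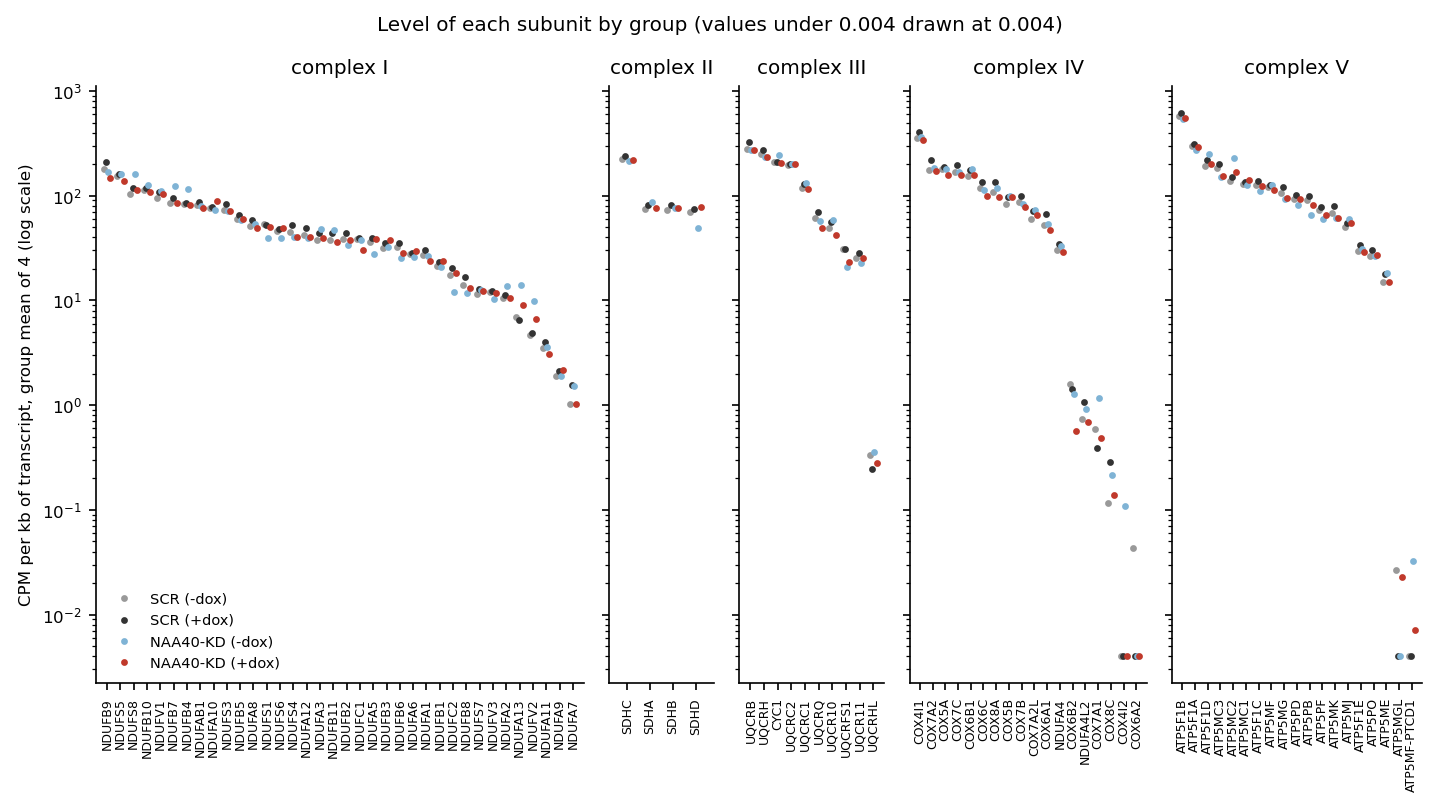
Mean level of the subunit genes shown in each of the 4 groups, in CPM per kb of transcript on a log scale, by complex and ordered by the mean over the 16 libraries. The points of the 4 groups lie close together for most genes, ATP5F1B is highest at 572 CPM per kb, and the restricted isoforms of complex IV lie far below their widely expressed relatives.

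Isoforms of restricted expression were at the bottom of complex IV. COX6B2, the testis isoform of COX6B, reached 1.21 CPM per kb against 167 for COX6B1, and NDUFA4L2, a hypoxia-inducible paralog of NDUFA4, 0.856 against 31.7 CPM per kb. COX7A1, COX8C, COX4I2 and COX6A2, which are known from heart, skeletal muscle, testis or lung, stayed below the filter of CPM above 1 in at least 4 libraries in all comparisons. Their mean levels over 16 libraries were 0.386, 0.101, 0.0187 and 0.00478 CPM. COX6B2 passed the filter in every comparison and NDUFA4L2 in the SCR comparison and the interaction. Together with these, NDUFA7, UQCRHL, ATP5MGL and the readthrough gene ATP5MF-PTCD1 were not tested, which left 79 members in the 3 comparisons of 2 groups that include NAA40-KD libraries and 80 in the SCR comparison and the interaction.

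In complex I the core subunits of the electron path are NDUFV1, which binds FMN and accepts electrons from NADH, NDUFS1 with its iron-sulphur clusters, and NDUFS7 near the site where coenzyme Q is reduced. In what follows values are listed for replicates 1 to 4 of each group. NDUFV1 stood at 140.1, 147, 135 and 151 CPM in SCR (-dox), 146, 148, 191 and 165 CPM in SCR (+dox), 129, 117, 138 and 281 CPM in NAA40-KD (-dox) and 155, 150, 159 and 162 CPM in NAA40-KD (+dox). Its highest value was in the NAA40-KD (-dox) library that stood apart, and the other 15 libraries ran from 117 to 191 CPM. For NDUFS1 the levels were 127, 123, 119 and 150.4 CPM in SCR (-dox), 133, 123, 131 and 118 CPM in SCR (+dox), 104, 102, 108 and 65.8 CPM in NAA40-KD (-dox) and 117, 123, 119 and 124 CPM in NAA40-KD (+dox). Here the same library was the lowest of all, and the other NAA40-KD (-dox) libraries also lay below every SCR library. NDUFS7 gave 12.4, 14, 11.1 and 10.5 CPM in SCR (-dox), 10.8, 12.9, 16 and 13.9 CPM in SCR (+dox), 9.48, 9.13, 12.1 and 22 CPM in NAA40-KD (-dox) and 12.1, 13.5, 13 and 12.6 CPM in NAA40-KD (+dox). NDUFAB1, the mitochondrial acyl carrier protein that also sits in complex I, gave 64.2, 60.2, 55.2 and 83.3 CPM in SCR (-dox), 72.1, 53, 83.1 and 71.4 CPM in SCR (+dox), 61.4, 55.5, 65 and 72 CPM in NAA40-KD (-dox) and 58.5, 60.3, 60.9 and 63.8 CPM in NAA40-KD (+dox). Both overlapped across all 4 groups.

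Complex II, succinate dehydrogenase, is encoded wholly in the nucleus and links the tricarboxylic acid cycle to the chain. SDHA, its flavoprotein, was measured at 152, 162, 145 and 174 CPM in SCR (-dox), 160.3, 158, 185 and 185 CPM in SCR (+dox), 169.7, 161, 179 and 230.5 CPM in NAA40-KD (-dox) and 165, 154, 156 and 166 CPM in NAA40-KD (+dox). SDHB, the iron-sulphur subunit, was measured at 83.7, 83.9, 76.7 and 95.2 CPM in SCR (-dox), 90.9, 75.9, 116 and 90.3 CPM in SCR (+dox), 85, 87.9, 97.4 and 81.7 CPM in NAA40-KD (-dox) and 84.6, 89, 89.8 and 86 CPM in NAA40-KD (+dox). Its one high value was in replicate 3 of SCR (+dox). The membrane anchors were SDHC at 108, 97.5, 97.8 and 112 CPM in SCR (-dox), 121, 103, 112 and 106 CPM in SCR (+dox), 109.8, 112, 103 and 73.9 CPM in NAA40-KD (-dox) and 95.1, 105, 101 and 102 CPM in NAA40-KD (+dox), and SDHD at 59.1, 47.7, 59.3 and 74 CPM in SCR (-dox), 69.4, 56.6, 86.9 and 42.5 CPM in SCR (+dox), 49.9, 46.9, 55.5 and 17.9 CPM in NAA40-KD (-dox) and 65.3, 68.1, 68.7 and 65.5 CPM in NAA40-KD (+dox). Both anchors were lowest in replicate 4 of NAA40-KD (-dox), SDHD by a wide margin, while SDHA was highest there. Leaving that library aside, SDHC and SDHA were among the steadiest members, with an SD of the log2 level of 0.092 and 0.102 over 15 libraries, where the median over members was 0.214 and over all genes tested 0.239. SDHD shares exon positions with TIMM8B on the other strand.

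In complex III, UQCRC1 is a core protein, CYC1 carries the haem of cytochrome c1 and UQCRFS1 is the Rieske iron-sulphur protein. UQCRC1 was measured at 223, 258, 212 and 251 CPM in SCR (-dox), 227, 227, 297 and 267 CPM in SCR (+dox), 218, 199, 239.9 and 393 CPM in NAA40-KD (-dox) and 224, 221, 232 and 238 CPM in NAA40-KD (+dox). CYC1 was measured at 259, 271, 209.8 and 296 CPM in SCR (-dox), 253, 214, 285 and 296 CPM in SCR (+dox), 242, 227, 267 and 487 CPM in NAA40-KD (-dox) and 252, 232, 261 and 270.5 CPM in NAA40-KD (+dox). In both, replicate 4 of NAA40-KD (-dox) was far above the other 15 libraries. UQCRFS1 was different, with 103, 110, 92.9 and 123 CPM in SCR (-dox), 111, 82.1, 131 and 106 CPM in SCR (+dox), 71.6, 65.7, 73.5 and 81.5 CPM in NAA40-KD (-dox) and 77.3, 77.7, 87.3 and 80.7 CPM in NAA40-KD (+dox). All 8 NAA40-KD libraries lay below all 4 SCR (-dox) libraries, and overlapped SCR (+dox) only through its replicate 2.

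Complex IV, cytochrome c oxidase, has its catalytic core encoded in mitochondria and is surrounded by nuclear subunits. COX4I1, the widely expressed form of its largest nuclear subunit, was at 264, 308, 234 and 314 CPM in SCR (-dox), 282, 259.6, 403 and 344 CPM in SCR (+dox), 253, 231, 275 and 406 CPM in NAA40-KD (-dox) and 264, 264, 276 and 279.5 CPM in NAA40-KD (+dox). COX5A was at 98.9, 114, 84.8 and 119 CPM in SCR (-dox), 104, 91.1, 132 and 107 CPM in SCR (+dox), 89.6, 89.9, 106 and 128 CPM in NAA40-KD (-dox) and 92.4, 89.3, 90.7 and 90.9 CPM in NAA40-KD (+dox). COX5B, which binds zinc, was at 49.3, 68.3, 49.1 and 68.5 CPM in SCR (-dox), 67.3, 56.1, 83.4 and 71.7 CPM in SCR (+dox), 57.5, 56.2, 64.9 and 104 CPM in NAA40-KD (-dox) and 71.3, 65.5, 69.8 and 67.5 CPM in NAA40-KD (+dox). In all 3 genes the highest libraries were replicate 3 of SCR (+dox) and replicate 4 of NAA40-KD (-dox). COX6C was at 61.7, 77, 71.5 and 90.1 CPM in SCR (-dox), 92.5, 73.2, 97.7 and 80.9 CPM in SCR (+dox), 72.5, 71.7, 80.3 and 60.9 CPM in NAA40-KD (-dox) and 66.5, 63.3, 61.1 and 58.8 CPM in NAA40-KD (+dox). Its 4 NAA40-KD (+dox) libraries lay below the 4 SCR (+dox) libraries. NDUFA4, once assigned to complex I and now to complex IV, was at 57.1, 64.6, 61.5 and 74.7 CPM in SCR (-dox), 76.5, 59.7, 87.9 and 69 CPM in SCR (+dox), 73, 70.1, 85.5 and 52.9 CPM in NAA40-KD (-dox) and 54.2, 66.1, 65.4 and 62 CPM in NAA40-KD (+dox), and its lowest value was in replicate 4 of NAA40-KD (-dox).

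In complex V, the F1 head in the matrix holds the catalytic sites and the membrane part holds the rotor of c subunits. ATP5F1B was measured at 1009, 1093, 982 and 1197 CPM in SCR (-dox), 1143, 1009, 1220 and 1145 CPM in SCR (+dox), 915, 908, 1034 and 1083 CPM in NAA40-KD (-dox) and 982, 1008, 1056 and 1031 CPM in NAA40-KD (+dox). The alpha subunit ATP5F1A was measured at 604, 577, 547 and 769.7 CPM in SCR (-dox), 670.1, 557, 742 and 651 CPM in SCR (+dox), 563, 543, 655 and 551 CPM in NAA40-KD (-dox) and 571, 609, 642 and 637 CPM in NAA40-KD (+dox). All 4 groups overlapped for both, and the SD of the log2 level of ATP5F1B over 15 libraries was 0.128. ATP5MC1, ATP5MC2 and ATP5MC3 encode the same mature c subunit of the membrane rotor and differ in their targeting sequences. ATP5MC1 was at 65.8, 65.7, 62 and 87.2 CPM in SCR (-dox), 67.9, 56.8, 91.4 and 76.5 CPM in SCR (+dox), 59, 53.1, 70.7 and 91 CPM in NAA40-KD (-dox) and 73.5, 73.3, 79.8 and 79.6 CPM in NAA40-KD (+dox). ATP5MC2 was at 109, 119, 103 and 114 CPM in SCR (-dox), 124, 104, 139 and 128 CPM in SCR (+dox), 153, 163, 168 and 255 CPM in NAA40-KD (-dox) and 146, 140, 132 and 134 CPM in NAA40-KD (+dox). ATP5MC3 was at 149, 152, 126 and 196 CPM in SCR (-dox), 167, 127, 218 and 159 CPM in SCR (+dox), 104, 111, 137 and 161 CPM in NAA40-KD (-dox) and 121, 129, 136 and 134 CPM in NAA40-KD (+dox). ATP5MC2 was higher in all 4 NAA40-KD (-dox) libraries than in all 8 SCR libraries, while ATP5MC1 and ATP5MC3 overlapped between those groups. ATP5PO, the oligomycin sensitivity subunit of the stator, was at 21, 24.1, 20.9 and 32 CPM in SCR (-dox), 27.7, 22.4, 38 and 24.1 CPM in SCR (+dox), 23.3, 25.5, 30.8 and 20.4 CPM in NAA40-KD (-dox) and 22.6, 25.4, 29.4 and 24.8 CPM in NAA40-KD (+dox), with overlap across all groups.

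The members that varied most over the 15 libraries without replicate 4 of NAA40-KD (-dox) were COX6B2, NDUFV2, NDUFA13 and NDUFA4L2, with SDs of the log2 level of 0.526, 0.489, 0.425 and 0.365. All 4 were at a mean level under 8 CPM over the 16 libraries, of which the highest was NDUFA13 with 7.55 CPM. UQCRC2 and NDUFA10 were among the steadiest, with SDs of 0.101 and 0.114.

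Summed over all 88 members, levels were 7277 ± 794 CPM in SCR (-dox) and 7905 ± 1106 CPM in SCR (+dox), and 7306 ± 807 CPM in NAA40-KD (-dox) and 7063 ± 116 CPM in NAA40-KD (+dox) (mean ± SD, n = 4 each). The 4 values were 6988, 7288, 6476 and 8356 CPM in SCR (-dox) and 7847, 6652, 9346 and 7777 CPM in SCR (+dox). In the NAA40-KD line they were 6754, 6606, 7499 and 8365 CPM in NAA40-KD (-dox) and 6980, 6949, 7184 and 7141 CPM in NAA40-KD (+dox). The groups overlapped, and NAA40-KD (+dox) had the smallest SD. By complex, the sums of complex IV were 1075 ± 129 CPM in SCR (-dox) and 1245 ± 224 CPM in SCR (+dox), and 1135 ± 142 CPM in NAA40-KD (-dox) and 1028 ± 13.8 CPM in NAA40-KD (+dox). In the same order, complex II had 407 ± 33.3, 439.7 ± 44.8, 415 ± 13.8 and 416 ± 4.02 CPM. In pooled cultures such as these, fewer cells with a transcript and less of it per cell cannot be told apart.

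**Figure D2:**
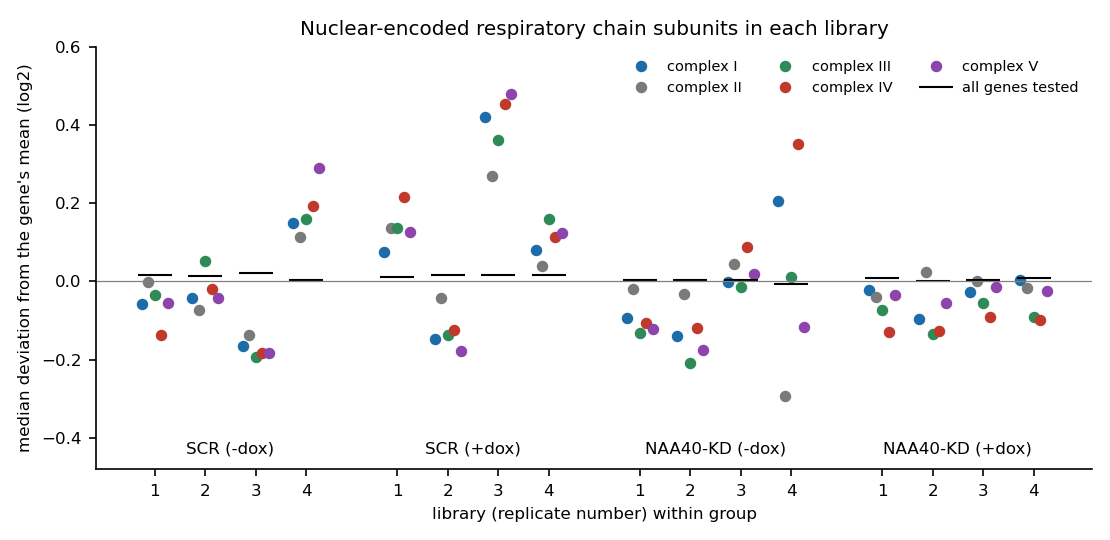
Median deviation of the subunits of each complex from each gene's mean over the 16 libraries, on the log2 scale, for every library, with the median over all genes tested as a black bar. All 5 complexes are raised in replicate 3 of SCR (+dox), by 0.269 to 0.480, whereas in replicate 4 of NAA40-KD (-dox) complex IV is at 0.352 and complex II at -0.293.

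The comparison of the lines with dox, NAA40-KD (+dox) against SCR (+dox), compares 2 groups that were both labelled as given the drug. Since NAA40 went against the labels, whether both groups had it is uncertain. Of the 79 subunits tested, 15 fell and 0 rose at an adjusted p under 0.05 in edgeR's quasi-likelihood test, all genes counted in the adjustment. Over all genes tested, 13.7% were called lower and 10.9% higher, so the 15 lower calls, 19% of the subunits tested, lay somewhat above the background. Their median log2 fold change was -0.17 where all genes had a median of 0.00, and 68 of 79 estimates were below 0. At an unadjusted p under 0.05 the count was 33 in both directions, 41.8% of the subunits against 37.2% of all genes, and DESeq2 and limma-voom called 16 and 13 subunits lower, with 0 and 1 higher. Over all genes DESeq2 called 13.4% lower and 11.8% higher, and limma-voom 13.2% and 11.3%. COX6B2 alone passed the further threshold of an absolute log2 fold change above 1 that the study used. Its call, counted in the 15, is a description, since it passed the CPM filter through SCR (+dox), where it was high.

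Complex IV held 6 of the falls among 13 subunits tested, where 13.7% of all genes were called lower. Its median was -0.33, and all 13 estimates were below 0. Without SCR (+dox) replicate 3, 4 of 13 fell, where 13.4% of all genes were called lower. The median was then -0.19, and 12 estimates were below 0. Without SCR (+dox) replicate 2, 10 of 13 fell, where 14.1% of all genes were, with a median of -0.41. With all libraries, the 6 that fell were COX6B2, COX6A1, COX8A, COX6C, COX7A2 and COX7C, small nuclear subunits that surround the catalytic core. COX6B2 was measured at 2.36, 2.03, 3.12 and 1.89 CPM in SCR (+dox) and 0.727, 1.48, 0.738 and 0.854 CPM in NAA40-KD (+dox). The 2 groups did not overlap, and the log2 fold change was -1.29 with an SE of 0.28 (adjusted p = 0.00322). These values rest on 8 to 42 counts per library, and COX6B2 reached the filter through the group in which it was high, since 3 of 4 NAA40-KD (+dox) libraries were under 1 CPM. COX6B2 lies on the minus strand at chr19:55349306-55354814 in GENCODE release 29 (build GRCh38) and shares exon positions with AC020922.1.

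COX8A, an abundant small subunit in the membrane, stood at 65.8, 53.6, 92.5 and 60.3 CPM in SCR (+dox) and 44.5, 47.6, 49.8 and 54.9 CPM in NAA40-KD (+dox). The groups overlapped by 1 value, with a log2 fold change of -0.47 with an SE of 0.13 (adjusted p = 0.0162). COX6A1, the widely expressed isoform of COX6A, stood at 39, 28.6, 53.4 and 33.2 CPM in SCR (+dox) and 23.7, 25.1, 27.7 and 31 CPM in NAA40-KD (+dox). Here too 1 NAA40-KD (+dox) value lay above the lowest SCR (+dox) value, and the log2 fold change was -0.52 with an SE of 0.15 (adjusted p = 0.0185). For COX6C, whose values are given above, the groups did not overlap and the log2 fold change was -0.47 with an SE of 0.10 (adjusted p = 0.00232). The other members, COX7C with -0.33 and COX7A2 with -0.35, had smaller falls. The 7 tested subunits of complex IV that did not pass were COX7B at -0.35, COX5A at -0.26, COX4I1 at -0.25, NDUFA4 at -0.24, COX6B1 at -0.17, COX7A2L at -0.12 and COX5B at -0.03. COX8A, COX6A1 and COX7C share exon positions with AP000721.1, AL021546.1 and AC108110.1, while COX6C and COX7A2 overlap no other gene in exons.

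In complex III, 3 of 9 subunits fell, where 13.7% of all genes were called lower. UQCRQ, a small subunit that sits next to cytochrome b, was measured at 37.5, 32.1, 54.6 and 40.8 CPM in SCR (+dox) and 27.3, 27.3, 30.1 and 30 CPM in NAA40-KD (+dox). No NAA40-KD (+dox) library reached the lowest SCR (+dox) library, and the log2 fold change was -0.53 with an SE of 0.13 (adjusted p = 0.00715). The Rieske protein gene UQCRFS1 fell with a log2 fold change of -0.41 with an SE of 0.11 (adjusted p = 0.0124), and UQCR10, a small subunit next to cytochrome c1, with -0.40 with an SE of 0.12 (adjusted p = 0.0261). The core protein gene UQCRC1 was at -0.15 and CYC1 at -0.05, and neither passed. UQCRQ shares exon positions with GDF9 on the other strand.

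In complex I, 3 of 36 subunits fell, a smaller share than the 13.7% of all genes called lower. All 3 were accessory. NDUFB9 in the membrane arm was measured at 150.3, 127, 202 and 151 CPM in SCR (+dox) and 105, 106, 116 and 119 CPM in NAA40-KD (+dox). These groups did not overlap, and the log2 fold change was -0.50 with an SE of 0.11 (adjusted p = 0.00418). NDUFB9 shares exon positions with MTSS1 and TATDN1 on the other strand. NDUFS4, a subunit of the matrix arm whose loss is known from Leigh syndrome, was at -0.39 and NDUFC1 at -0.38. Subunits of the electron path named above were near 0, with NDUFV1 at -0.05, NDUFS1 at -0.07 and NDUFS7 at -0.07.

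In complex V, 3 of 17 subunits fell, a share near the 13.7% of all genes called lower. They were ATP5MC3 with -0.37, ATP5MG with -0.37 and ATP5MK with -0.38, all in the membrane part. The other c subunit genes did not pass and lay above 0, ATP5MC1 at 0.06 and ATP5MC2 at 0.16. The F1 head subunits ATP5F1A and ATP5F1B were at -0.09 and -0.15. In complex II, 0 of 4 passed, 0 of 4 had an unadjusted p under 0.05, and log2 fold changes ran from -0.13 to 0.07.

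For the promoters of the subunits, RefSeq windows of 250 bases before to 50 bases after the annotated start (build GRCh38.p14) were found for 68 of 88 members. Where a gene had several windows, only the first listed was used, so a gene without a word here may hold one in another window. They were searched on both strands for 3 words that nuclear factors known from respiratory genes can bind, CCGGAAG for the ETS family that includes GABPA, GCGCATGC for NRF1 and AAGATGGC for YY1. The ETS word was present in 29.4% of subunit windows and 10.7% of all 27305 windows, the NRF1 word in 19.1% and 3.27%, and the YY1 word in 16.2% and 3.03%. At least one word was present in 34 of 68 subunit windows (50%) and in 15.6% of all windows. By complex this was 14 of 32 in complex I, 2 of 3 in complex II, 4 of 7 in complex III, 5 of 13 in complex IV and 9 of 13 in complex V. A match is a word in these letters and says nothing of binding in these cells.

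Of the 15 subunits lower in NAA40-KD (+dox) than in SCR (+dox), 12 had a window, 5 of these held the ETS word and 6 any of the 3, which is the same 50% as over all subunit windows. In the windows used, COX7A2, COX7C, UQCR10, UQCRFS1, NDUFC1 and COX6B2 held none, nor did NDUFV2. NDUFC1 had 4 windows and COX7A2 had 2, of which only the first was searched.

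Windows are shown for a few of the subunits named above and NDUFB4, as examples with and without a word, with matched words in capitals and read 5′ to 3′ on the strand of the gene. COX6A1, COX8A and UQCRQ fell in NAA40-KD (+dox) against SCR (+dox) and hold the ETS word, which may appear as its reverse complement. COX6B1 and COX6B2 are shown as a widely expressed isoform with that word and a restricted isoform without any of the 3. NDUFB4, called within the NAA40-KD line, holds overlapping NRF1 words on both strands. The windows lie at chr12:120437863-120438162 (plus strand) for COX6A1, chr11:63974370-63974669 (plus strand) for COX8A, chr5:132866392-132866691 (plus strand) for UQCRQ, chr19:35648073-35648372 (plus strand) for COX6B1, chr19:55354670-55354969 (minus strand) for COX6B2 and chr3:120596086-120596385 (plus strand) for NDUFB4.
COX6A1: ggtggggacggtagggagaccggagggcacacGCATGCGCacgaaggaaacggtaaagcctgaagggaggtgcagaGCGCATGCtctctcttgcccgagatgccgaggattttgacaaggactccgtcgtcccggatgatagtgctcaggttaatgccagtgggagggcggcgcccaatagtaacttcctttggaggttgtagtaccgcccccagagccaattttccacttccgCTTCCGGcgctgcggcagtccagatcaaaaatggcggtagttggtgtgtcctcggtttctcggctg
COX8A: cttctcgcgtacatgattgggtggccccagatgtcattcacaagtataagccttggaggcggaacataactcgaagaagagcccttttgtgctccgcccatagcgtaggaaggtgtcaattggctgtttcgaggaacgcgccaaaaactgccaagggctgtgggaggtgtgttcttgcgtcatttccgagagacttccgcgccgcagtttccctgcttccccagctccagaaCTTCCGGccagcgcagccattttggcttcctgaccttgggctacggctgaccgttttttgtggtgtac
UQCRQ: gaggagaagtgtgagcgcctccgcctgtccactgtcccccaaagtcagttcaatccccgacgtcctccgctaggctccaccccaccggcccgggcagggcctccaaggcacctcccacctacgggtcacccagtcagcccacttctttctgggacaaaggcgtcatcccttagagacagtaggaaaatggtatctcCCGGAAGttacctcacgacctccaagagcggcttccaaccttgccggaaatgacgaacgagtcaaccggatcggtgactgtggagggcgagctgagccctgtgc
COX6B1: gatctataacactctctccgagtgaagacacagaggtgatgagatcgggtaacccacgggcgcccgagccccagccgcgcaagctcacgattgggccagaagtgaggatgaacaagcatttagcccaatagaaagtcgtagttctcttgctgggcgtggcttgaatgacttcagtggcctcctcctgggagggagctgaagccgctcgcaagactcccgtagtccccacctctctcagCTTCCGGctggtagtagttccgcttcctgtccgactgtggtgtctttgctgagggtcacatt
COX6B2: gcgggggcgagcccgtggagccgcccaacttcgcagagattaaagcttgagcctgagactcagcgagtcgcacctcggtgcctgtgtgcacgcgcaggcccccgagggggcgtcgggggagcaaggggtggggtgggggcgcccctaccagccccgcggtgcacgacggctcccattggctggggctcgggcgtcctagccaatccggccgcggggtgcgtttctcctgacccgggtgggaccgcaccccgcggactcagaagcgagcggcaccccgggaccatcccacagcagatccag
NDUFB4: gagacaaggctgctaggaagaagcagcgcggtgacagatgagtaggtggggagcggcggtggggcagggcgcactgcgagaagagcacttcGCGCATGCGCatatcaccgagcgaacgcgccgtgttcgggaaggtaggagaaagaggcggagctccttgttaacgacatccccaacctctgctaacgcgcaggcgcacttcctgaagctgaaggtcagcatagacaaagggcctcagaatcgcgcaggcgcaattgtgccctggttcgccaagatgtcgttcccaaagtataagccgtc
Counted from the annotated start, the ETS word began at -16 in COX6A1, -18 in COX8A, -54 in UQCRQ and -12 in COX6B1. The NRF1 word began at -218 and -174 in COX6A1, and at -159 and -157 in NDUFB4.

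**Figure D3:**
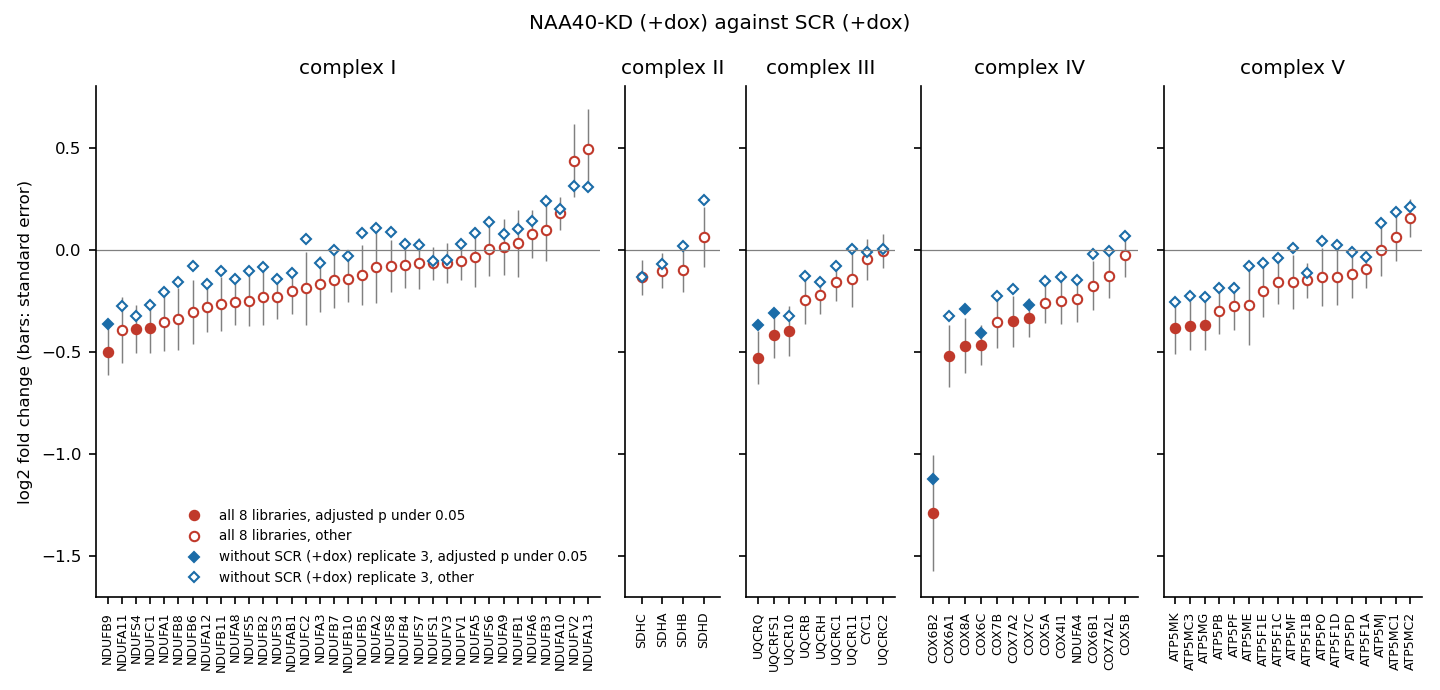
Log2 fold change of the subunits shown, NAA40-KD (+dox) against SCR (+dox), from all 8 libraries (circles, with standard errors) and without replicate 3 of SCR (+dox) (diamonds), where filled symbols passed an adjusted p under 0.05. Most diamonds sit above their circles, and 7 of the 15 subunits called with all libraries stay filled.

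The number of falls depended on single libraries of both groups. Leaving out NAA40-KD (+dox) replicate 1, 2, 3 or 4 left 8, 7, 10 and 8 falls, against 9.78 to 10.2% of all genes called lower. The median moved furthest with SCR (+dox) replicates 3 and 2. Without SCR (+dox) replicate 3, the library in which all complexes stood high, 7 subunits fell (8.86% of 79, against 13.4% of all genes called lower and 10.7% higher). The median was then -0.07, and 51 of 79 estimates were below 0. All 7 belonged to the 15, and they were COX6B2, COX6C, COX7C, COX8A, NDUFB9, UQCRFS1 and UQCRQ. Of these, COX6B2 is a description only, since it passed the CPM filter through SCR (+dox), where it was high. Without SCR (+dox) replicate 2, the library in which the complexes were lowest in that group, 33 fell and 2 rose, against 14.1% and 11.3% of all genes. The median was then -0.25. COX6A1 did not pass without SCR (+dox) replicate 3 (-0.33, adjusted p = 0.0577 in edgeR), whereas COX6C did (-0.40, adjusted p = 0.00456 in edgeR). In a fit over all 16 libraries, 2 subunits fell, where 4.78% of all genes were called lower, and 15 fell when that fit left out replicate 4 of NAA40-KD (-dox), where 14.2% of all genes were.

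**Figure D4:**
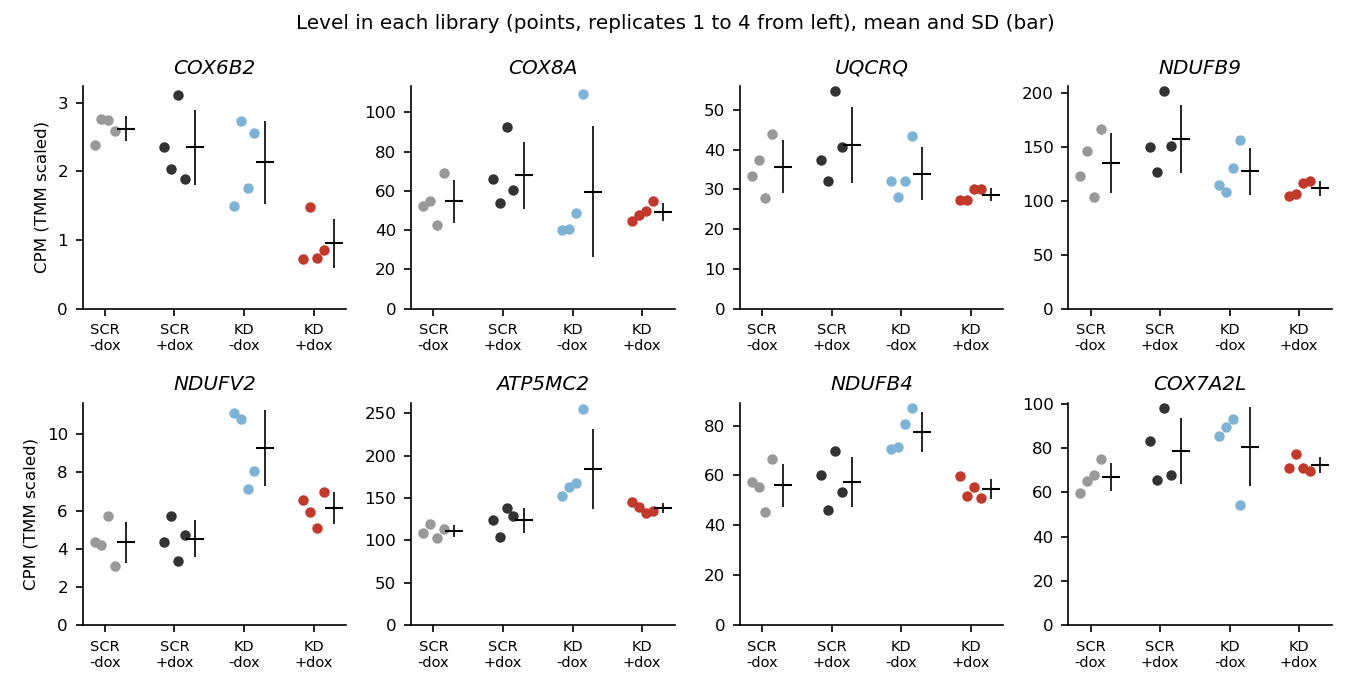
Levels of 8 subunits in every library, in TMM-scaled CPM, with points for replicates 1 to 4 of each group and bars for mean and SD (KD stands for NAA40-KD). COX6B2 is lowest in NAA40-KD (+dox), NDUFV2, ATP5MC2 and NDUFB4 are highest in NAA40-KD (-dox), and replicate 4 of NAA40-KD (-dox) stands off for COX8A, ATP5MC2 and COX7A2L.

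Without dox, NAA40-KD (-dox) against SCR (-dox), the libraries in which NAA40 itself was low, 2 of 79 subunits rose and 0 fell in edgeR's test, against 2.88% of all genes called higher and 3.54% called lower. The share of rises, 2.53%, was near the background. The median log2 fold change of the subunits was 0.00 and that of all genes 0.04. At an unadjusted p under 0.05 there were 7 subunits in both directions, 8.86% against 23.6% of all genes, DESeq2 called 3 higher and 1 lower, and limma-voom 2 and 0. Over all genes DESeq2 called 6.73% higher and 7.03% lower, and limma-voom 2.95% and 4.18%. NDUFV2, an iron-sulphur subunit of the NADH-binding module, was measured at 4.34, 4.19, 5.74 and 3.12 CPM in SCR (-dox) and 11.1, 10.8, 7.15 and 8.07 CPM in NAA40-KD (-dox). The groups did not overlap, with a log2 fold change of 1.10 with an SE of 0.23 (adjusted p = 0.0262). NDUFV2 lies at chr18:9102630-9134345 (GRCh38, plus strand) and overlaps AP005263.1 in exon positions. ATP5MC2 rose with a log2 fold change of 0.74 with an SE of 0.19 (adjusted p = 0.0493), and is placed at chr12:53632726-53677408 on the minus strand. It overlaps AC073594.1 in exon positions. Both calls depended on single libraries, since NDUFV2 passed in 3 of the 8 fits that left out 1 library each and ATP5MC2 in 1 of 8.

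Leaving out replicate 4 of NAA40-KD (-dox), 5 subunits rose and 7 fell, 6.33% and 8.86% of 79, while 17.1% and 19.4% of all genes were called higher and lower. Rises were NDUFV2 with 1.15 with an SE of 0.21 (adjusted p = 0.000553), ATP5MC2 with 0.53 with an SE of 0.08 (adjusted p = 0.000163), and NDUFB4, COX7A2L and ATP5MJ with 0.40, 0.41 and 0.35. COX7A2L is known for joining complexes III and IV into supercomplexes. Falls were UQCRFS1 with -0.61 with an SE of 0.10 (adjusted p = 0.000225), and NDUFA11, ATP5MC3, NDUFS6, ATP5PB, NDUFS1 and NDUFV3 with log2 fold changes of -0.52, -0.42, -0.39, -0.36, -0.32 and -0.28. Both directions were thus present within complexes I and V, and within the c subunit genes ATP5MC2 rose where ATP5MC3 fell.

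Within the NAA40-KD line, NAA40-KD (+dox) against NAA40-KD (-dox), 1 of 79 subunits fell and 0 rose, where 5.5% of all genes were called lower and 4.71% higher in edgeR. The subunit was NDUFB4, whose promoter window with overlapping NRF1 words is printed above, an accessory subunit of the membrane arm on the plus strand at chr3:120596309-120602500. It was measured at 70.5, 71.5, 80.8 and 87.2 CPM in NAA40-KD (-dox) and 59.7, 51.6, 55.5 and 51.2 CPM in NAA40-KD (+dox). The groups did not overlap, and the log2 fold change was -0.51 with an SE of 0.13 (adjusted p = 0.0376). Unadjusted p was under 0.05 for 5 subunits, 6.33% against 27.7% of all genes, and DESeq2 called 1 higher and 3 lower, limma-voom 0 and 2. Over all genes DESeq2 called 8.37% higher and 9.87% lower, and limma-voom 5.36% and 5.45%. All 13 complex IV subunits tested had estimates below 0, with a median of -0.19.

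Without replicate 4 of NAA40-KD (-dox), 14 subunits rose and 14 fell, 17.7% in each direction, where 25.8% of all genes were called higher and 26.6% lower. Calls went in both directions in complexes I, III, IV and V. In complex IV, 6 of 13 fell and 1 rose, and the falls were COX6B2 at -1.05, COX7A2L at -0.31, NDUFA4 at -0.30, COX6C at -0.27, COX7A2 at -0.25 and COX7C at -0.14. COX6B2 again passed the filter through the group in which it was high, with 3 of 4 NAA40-KD (+dox) libraries under 1 CPM, so its fall is a description. In complex I, 8 of 36 rose and 5 fell, with rises in NDUFS6 (0.47), NDUFS7 (0.32), NDUFV1 (0.28) and NDUFS1 (0.21), and falls in NDUFV2 (-0.66) and NDUFB4 (-0.45) among others. In complex V, ATP5F1D and ATP5MC1 rose by 0.36 and 0.33 on the log2 scale, and ATP5MC2 and ATP5MJ were at -0.23 and -0.24, both called lower. SDHD rose by 0.39 and UQCRFS1 by 0.20. This comparison shares its libraries with both line comparisons.

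In the SCR line, which carries no NAA40 hairpin, dox was tested by SCR (+dox) against SCR (-dox). No subunit of 80 passed (0% of all genes were called in either direction), DESeq2 and limma-voom also called 0, and 1 subunit, COX6A1, had an unadjusted p under 0.05, as did 271 of 13882 genes. Its log2 fold change was 0.36 with an SE of 0.17 (adjusted p = 1) in edgeR. Even so, 76 of 80 estimates were above 0, with a median of 0.15 where all genes had a median of 0.00. Without replicate 3 of SCR (+dox) the median was 0.03, and without its replicate 2 it was 0.23. The size of this median thus depended on single libraries.

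Whether the line difference itself differed with the dox label was tested as an interaction over the 16 libraries, (NAA40-KD (+dox) minus SCR (+dox)) minus (NAA40-KD (-dox) minus SCR (-dox)). No subunit of 80 passed in edgeR, where 4.31% of all genes were called higher and 4.91% lower, and DESeq2 and limma-voom called 0. Unadjusted p was under 0.05 for 6 subunits, among them NDUFB4, NDUFV2, UQCR10, COX6B2 and ATP5MC2, all with estimates below 0, which was 7.5% of subunits against 25% of all genes. The median was -0.25 for subunits and -0.05 for all genes. It was -0.12 without replicate 3 of SCR (+dox) and -0.14 without replicate 4 of NAA40-KD (-dox). With all libraries, all 14 complex IV subunits tested were below 0, with a median of -0.39.

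Without replicate 4 of NAA40-KD (-dox), 6 subunits had a lower interaction, 7.5% of 80 where 12.3% of all genes were called lower and 11.9% higher, and 4 of them belonged to complex IV. These were COX7A2 with -0.55 with an SE of 0.18 (adjusted p = 0.0281), COX7A2L with -0.54 with an SE of 0.15 (adjusted p = 0.0125), NDUFA4 with -0.49 with an SE of 0.16 (adjusted p = 0.0303) and COX6C with -0.47 with an SE of 0.15 (adjusted p = 0.0291). The remaining ones were NDUFB4 with -0.48 and ATP5MC2 with -0.38. All 14 complex IV estimates remained below 0, from -0.90 to -0.05. This fit still held replicate 3 of SCR (+dox), in which the median deviation of complex IV was 0.454 on the log2 scale. No fit left out both libraries, so the part of that library in these calls was not tested. COX6B2 was at -0.90 and did not pass. COX7A2 was measured at 80, 77, 85.1 and 97.8 CPM in SCR (-dox), 108, 82.7, 138 and 90.1 CPM in SCR (+dox), 89.2, 91.5, 112 and 59.4 CPM in NAA40-KD (-dox) and 87.6, 77.3, 83.1 and 80.5 CPM in NAA40-KD (+dox). COX7A2L was measured at 59.7, 65.2, 67.8 and 75.2 CPM in SCR (-dox), 83.4, 65.5, 97.9 and 68 CPM in SCR (+dox), 85.3, 89.6, 93 and 54.2 CPM in NAA40-KD (-dox) and 71.1, 77.5, 70.8 and 69.5 CPM in NAA40-KD (+dox). For COX7A2L, replicates 1 to 3 of NAA40-KD (-dox) lay above all SCR (-dox) libraries, for COX7A2 they overlapped them, and in both genes replicate 4 was the lowest of the 16 libraries.

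**Figure D5:**
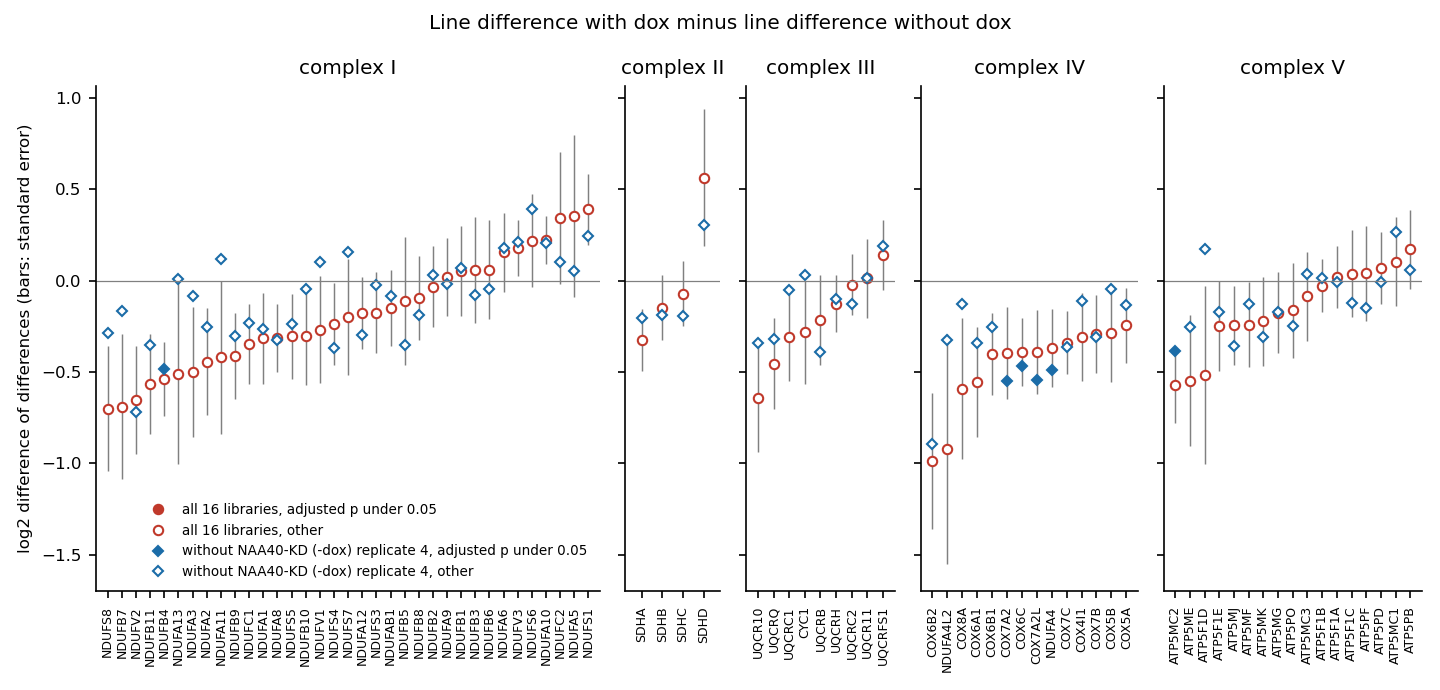
Log2 difference between the line difference with dox and that without dox for the subunits shown, from all 16 libraries (circles, with standard errors) and without replicate 4 of NAA40-KD (-dox) (diamonds), where filled symbols passed an adjusted p under 0.05. No circle is filled, 6 diamonds are filled, and every symbol in complex IV lies below 0.

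The other genes of the pathway were taken from 5 lists. In NAA40-KD (+dox) against SCR (+dox) they showed calls in both directions, where 10.9% of all genes were called higher and 13.7% lower. Of 45 assembly factors tested, 3 rose and 3 fell, with a median of 0.02. NUBPL, which helps build the iron-sulphur clusters of complex I, and NDUFAF3 were at -0.54 and -0.41, COA4 was at -0.37 and COA7 at 0.40. Of 11 regulators of respiratory chain transcription, 2 rose and 0 fell, the coactivator PPARGC1B with 0.77 and the mitochondrial RNA polymerase POLRMT with 0.44. Of the 13 mitochondrially encoded subunits, 2 rose and 0 fell, MT-CYB of complex III with 0.67 and MT-ATP8 of complex V with 0.35. In the tricarboxylic acid cycle list, 1 of 17 rose (SUCLG2, 0.30) and 2 fell (PDHB, -0.40, and IDH3B, -0.36). Among electron carriers and the ATP synthase inhibitor, 0 of 12 rose and 4 fell, ATP5IF1, the inhibitor of ATP hydrolysis by complex V, with -0.69, COQ5 with -0.33, ETFDH with -0.33 and ETFA with -0.32.

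In NAA40-KD (-dox) against SCR (-dox), 2.88% of all genes were called higher and 3.54% lower. Of 43 assembly factors, 1 rose (SDHAF4, 0.73) and 1 fell (ACAD9, -0.81), and 1 of 11 regulators fell (PPARGC1B, -0.82). None of the 13 mitochondrially encoded subunits, 17 cycle enzymes or 12 carriers passed in edgeR, and 2, 1 and 5 of them had an unadjusted p under 0.05. Without replicate 4 of NAA40-KD (-dox), where 17.1% of all genes were called higher and 19.4% lower, 4 assembly factors rose and 9 fell, 1 regulator rose and 3 fell, and 1 mitochondrially encoded subunit and 3 cycle enzymes fell with 0 rises. Among the 12 carriers in that fit, 1 rose and 6 fell, 50% of the list. PPARGC1B, which cooperates with nuclear respiratory factors and ERRs, was measured at 39.2, 32.5, 32 and 31.9 CPM in SCR (-dox), 28.3, 27.1, 21.7 and 29.3 CPM in SCR (+dox), 18.7, 20.4, 17.9 and 19.5 CPM in NAA40-KD (-dox) and 41.4, 45, 48.5 and 46.6 CPM in NAA40-KD (+dox). It was lowest in NAA40-KD (-dox) and highest in NAA40-KD (+dox), without overlap of either with any other group, and its interaction was 1.59 with an SE of 0.17 (adjusted p = 5.79e-05) in edgeR. In the interaction 0 of the 13 mitochondrially encoded subunits passed, 2 had an unadjusted p under 0.05, and all 13 estimates were above 0, with a median of 0.53, or 0.36 without replicate 4 of NAA40-KD (-dox). Over the other lists, 4 assembly factors rose and 1 fell, where 4.31% of all genes were called higher and 4.91% lower. From the remaining lists 1 regulator, 1 carrier and 0 cycle enzymes rose, and none fell. Without that library 6 and 3 assembly factors, 2 and 0 regulators, 2 and 1 cycle enzymes and 2 and 1 carriers were called higher and lower, against 11.9% and 12.3% of all genes. Within the NAA40-KD line, NAA40-KD (+dox) against NAA40-KD (-dox), 4.71% of all genes were called higher and 5.5% lower. Of 44 assembly factors, 4 rose and 1 fell, among them LYRM7 (1.16), an assembly factor for the Rieske protein, and the one that fell, SDHAF4 (-0.86). In the same comparison 1 of 11 regulators (PPARGC1B, 1.24), 1 of 13 mitochondrially encoded subunits (MT-CO1, 0.59), 0 of 17 cycle enzymes and 2 of 12 carriers (PDSS1, 1.00, and COQ7, 0.59) rose, and none of these fell. Without replicate 4 of NAA40-KD (-dox), 8 of the 13 mitochondrially encoded subunits rose (61.5%, against 25.8% of all genes called higher) and 0 fell. Log2 fold changes ran from 0.07 to 0.50 over all 13. Nuclear subunits in that fit had 14 rises and 14 falls, of which complex IV had 1 rise and 6 falls. Mitochondrial genes took 9.34, 9.25 and 7.63% of counts in replicates 1 to 3 of NAA40-KD (-dox) and 9.76 to 11.62% in NAA40-KD (+dox). The part of this share in these rises was not tested. In the same fit, where 26.6% of all genes were called lower, 14 assembly factors rose and 4 fell, 4 regulators rose and 1 fell, 7 cycle enzymes rose and 2 fell, and 4 carriers rose and 3 fell. In the SCR line, 0 genes of the 5 lists passed, and 2 had an unadjusted p under 0.05.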

How the data were processed

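RNA-seq was performed on 16 libraries of HCT116 cells, 4 in each of 4 groups taken from the sample labels, which the methods call independent RNA samples. The authors aligned reads with STAR and used featureCounts to count them, and the deposited values are raw counts for 33937 genes that were not normalized. The submitters' processing notes list the builds hg38 and GRCm38 and the methods a mouse build, whereas the identifiers are human Ensembl genes, so genes were placed with GENCODE release 29 (GRCh38). The strand setting of featureCounts is not given in the sources used here, nor is its version. The methods and the labels name different RNA and library kits. The number of count columns that matched no sample was 0.

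From these counts, edgeR 4.0.16 in R 4.3.3 was used with TMM scaling and its robust quasi-likelihood test, two-sided, and p-values were adjusted by the Benjamini-Hochberg method over all genes with CPM above 1 in at least 4 libraries of the fit. Comparisons of 2 groups used their own 8 libraries and the interaction all 16. Standard errors (SE) were obtained from each log2 fold change and its F statistic, as the ratio of the absolute change to the root of F. A gene was called at an adjusted p under 0.05. The study used limma, which served here as an alternative (limma-voom, limma 3.58.1), as did DESeq2 1.42.0, other scalings and filters, a fit over all 16 libraries, a replicate block, offsets for GC content and gene length, other thresholds, and leaving out each library. A fit over 15 libraries was added after the data had been seen. The fits were tested on simulated counts. Library pairs within groups differed by more than sampling noise (chi-square per degree of freedom 1.74 to 140), and nothing beyond the wording of the methods says that samples came from separate cultures, so p-values measure the spread between these samples, which may be technical. No source used here says whether replicate numbers pair the samples, and the main fits did not pair them.

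Every library's value was planned for 23 core subunits, of which 1 is not reported here or drawn in the figures, though the counts include it, and for each comparison up to 6 rises and 6 falls of largest size among those called were named, with restricted isoforms, NAA40 and up to 4 genes per pathway list. Other members named were chosen after their values were seen. The members, the 5 pathway lists and this rule were chosen with earlier results of these data known. CPM per kb uses the median length of protein-coding transcripts.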

Additional observations from a re-analysis of the deposited data

Results flagged for a closer look

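Gaps within groups of 4 libraries were compared with Dixon's critical value for groups of that size, which chance passes in about 1 of 20 groups, and 8 of the 140 groups tested passed. In NAA40-KD (-dox), replicate 4 was the highest for NDUFV1 (281 CPM, next 139), CYC1 (487 CPM, next 267), ATP5MC2 (255 CPM, next 168) and COX8A (109 CPM, next 48.7), and the lowest for NDUFS1 (65.8 CPM, next 102). This is the library that stood apart over all genes, with a rank correlation of 0.916 with its group. In SCR (-dox), replicate 4 was the highest for ATP5MC1 (87.2 CPM, next 65.8). In NAA40-KD (+dox), replicate 2 was the highest for COX6B2 (1.48 CPM, next 0.854), at 20 counts, and the lowest for the summed level of complex III (1210 CPM, next 1250).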

How the results depend on the processing

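The number of subunits called depended on the setting. In NAA40-KD (+dox) against SCR (+dox), with 15 called, DESeq2 called 16, limma-voom 14, the GC offset 21 and the gene length offset 10, one fit over all 16 libraries 2, adjusted p thresholds of 0.01 and 0.1 gave 4 and 26, the fold threshold gave 1, and leaving out 1 library gave 7 to 35. Without NAA40-KD (+dox) replicate 1, 2 or 4 the counts were 8, 7 and 8. With the gene length offset 9 subunits were lower and 1 higher, where 14.1% of all genes were called lower and 12.4% higher. Without SCR (+dox) replicate 1, 10 were lower, where 12.7% of all genes were. The excess over the background was thus not present in every fit. Shares over all genes at the thresholds of 0.01 and 0.1 are not given here. In NAA40-KD (-dox) against SCR (-dox), with 2 called, DESeq2 called 4, no filter on low counts 1, CPM above 1 in every library 1, all 16 libraries 6, the GC offset 10, the threshold of 0.01 gave 0, the fold threshold 1, and leaving out 1 library 0 to 12. In NAA40-KD (+dox) against NAA40-KD (-dox), with 1 called, DESeq2 called 4, limma-voom 2, no filter 0, all 16 libraries 5, the GC offset 17, the length offset 2, thresholds of 0.01 and 0.1 gave 0 and 3, the fold threshold 0, and leaving out 1 library 0 to 28, the highest without NAA40-KD (-dox) replicate 4. In the interaction, with 0 called, the GC offset gave 7, the threshold of 0.1 gave 1, and leaving out 1 library gave 0 to 6. In the SCR line the count was 0 under every alternative run. Calls over all genes moved too. Without dox, 17.7% of all genes were called higher and 18.2% lower with the GC offset, and 10% and 10.5% with all 16 libraries. In the NAA40-KD line these were 21.8% and 22.2%, and 10.1% and 12.2%, in the interaction with the GC offset 14.4% and 14.6%, and with dox 15.2% and 16.6%. Without dox, 1.6% and 1.79% were called with no filter, and 2.59% and 3.27% with CPM above 1 in every library. In the NAA40-KD line these were 1.67% and 1.93% with no filter, and 5.26% and 6.16% with the length offset. The cause of these changes was not tested. With the replicate block, counts were 0, 22, 1, 0 and 0 for the comparison without dox, that with dox, the NAA40-KD line, the SCR line and the interaction. With dox, that fit called 13.9% of all genes higher and 15.5% lower. Correlations of samples sharing a number ran from -0.469 to 0.271. The best match had the same number for some samples, such as replicates 2 to 4 in the NAA40-KD line, and another number for most. These values cannot decide whether samples sharing a number were paired.

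Medians over the subunits moved by less than 0.152, the SD of the library medians on the log2 scale, under every alternative run. The main medians were 0.00 without dox, -0.165 with dox, -0.072 in the NAA40-KD line, 0.149 in the SCR line and -0.246 in the interaction. Most of these could reach 0 within that bound, so it says little about them. When 1 library was left out, the median with dox stayed between -0.25 and -0.07, and that in the SCR line ran from 0.03 to 0.23. For the 9 subunits named by size among those called, with NAA40, 171 values kept their direction and side of the threshold, 33 kept their direction and lost the threshold, and 0 reversed. These subunits were picked for large changes in the same libraries, so a kept direction was likely beforehand. ATP5MC2 and NDUFB4 each kept their call in 1 of the 8 fits that left out 1 library. Values near 0 that did not pass could change sign, as ATP5MC1 did without SCR (+dox) replicate 2 (-0.04) and NDUFV1, NDUFS7 and COX5B without SCR (+dox) replicate 3 (0.03, 0.03 and 0.07) in the comparison with dox. Depth limits the weakest members, such as COX6B2 with 8 to 42 counts per library in the (+dox) groups, and the 8 members under the filter in the fit over 16 libraries could not be tested.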
